A study of Rattus norvegicus with 3 samples.

Results

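The genes of constitutive plasma proteins followed here were Alb (ENSRNOG00000002911), Tf (ENSRNOG00000030625), Ttr (ENSRNOG00000016275) and Apoe (ENSRNOG00000018454). They are 4 of the 26404 rat gene identifiers counted. They were chosen by identifier, as genes whose products hepatocytes secrete without an inflammatory stimulus; the rule uses no measured value, but earlier results of these data were known when it was made. The study sequenced RNA of adult rat liver in 3 libraries, each made from the pooled RNA of 3 rats. The healthy library came from untreated animals. The saline library came from animals that received 1 ml of saline as vehicle, and whose livers were taken 32 hours after partial hepatectomy, an operation that removes part of the liver and leaves the remnant to regrow. The etanercept library came from animals that received etanercept at 9 mg/kg in 1 ml, 16 to 18 hours before the same operation, with livers again taken at 32 hours. Etanercept is a soluble TNF receptor fusion protein that binds TNF. No strain, sex or sham operation is given in the sources used here.

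With 1 library per group there was no replicate check and no test, so every difference below is between libraries and each interval covers counting error only. Reads in genes numbered 5993834 in the healthy, 2645152 in the saline and 3639886 in the etanercept library. Uniquely aligned reads outside every gene made up 19.9%, 21.7% and 77.4% of the uniquely aligned reads, respectively. The etanercept library therefore stood apart from the others in where its reads fell, and this share moved with every comparison that uses it. The part it had in those comparisons was not tested.

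Albumin, the product of Alb, is the main protein of plasma; it holds water in the vessels and carries fatty acids, bilirubin and drugs. Transferrin, from Tf, binds ferric iron and delivers it to cells through the transferrin receptor. Transthyretin, from Ttr, carries thyroid hormone and, with retinol-binding protein, vitamin A. Apolipoprotein E, from Apoe, is a surface protein of lipoproteins and a ligand by which remnant particles are taken up by LDL receptor family members; macrophages make it as well as hepatocytes. In rodents, Alb and Ttr are classed as negative acute-phase genes, whose messenger RNA is lowered in liver during inflammation. Transcription of such genes in hepatocytes depends on factors such as HNF1, HNF4, FOXA and C/EBP proteins.

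The promoter windows of 3 of the genes are shown because Ttr and Tf were the genes that differed most and least between libraries, with Alb between them. RefSeq (GRCr8) gives 1 window each for Alb, Tf and Ttr, from 250 bases before the gene's start to 50 after it, matched by symbol. Capitals mark exact matches, on either strand, to any of 5 letter patterns: the HNF1 pattern GTTAAT (part of its longer site), the C/EBP pattern TTNNGCAA, the CCAAT box CCAAT, the TATA box TATAAA and the STAT3 pattern TTCNNNGAA. The Alb window lies at chr14:17906930-17907229, minus strand. The Tf window lies at chr8:112695327-112695626, minus strand. The Ttr window lies at chr18:12218508-12218807, plus strand.

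Alb: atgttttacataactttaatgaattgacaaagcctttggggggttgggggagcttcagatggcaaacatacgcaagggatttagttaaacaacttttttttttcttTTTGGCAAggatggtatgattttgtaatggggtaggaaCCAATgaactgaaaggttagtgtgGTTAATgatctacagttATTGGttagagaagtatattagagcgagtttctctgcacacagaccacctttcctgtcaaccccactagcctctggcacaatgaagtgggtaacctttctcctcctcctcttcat

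Tf: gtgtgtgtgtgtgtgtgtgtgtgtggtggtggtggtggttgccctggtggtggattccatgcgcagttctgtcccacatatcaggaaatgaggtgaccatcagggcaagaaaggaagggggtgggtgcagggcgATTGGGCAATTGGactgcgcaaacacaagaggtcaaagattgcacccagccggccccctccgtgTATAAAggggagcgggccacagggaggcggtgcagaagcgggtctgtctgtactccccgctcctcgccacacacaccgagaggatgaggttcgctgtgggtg

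Ttr: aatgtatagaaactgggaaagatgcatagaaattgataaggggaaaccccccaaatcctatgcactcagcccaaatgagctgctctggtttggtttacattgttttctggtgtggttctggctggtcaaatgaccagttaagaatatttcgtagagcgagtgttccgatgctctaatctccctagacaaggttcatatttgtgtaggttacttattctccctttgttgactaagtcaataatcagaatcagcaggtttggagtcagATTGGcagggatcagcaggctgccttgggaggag

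The Alb window held 4 matches. A C/EBP match began 144 bases before the start, a CCAAT box 106 bases before it, an HNF1 match 82 bases before it, and a CCAAT box on the opposite strand 65 bases before it. The Tf window also held 4 matches, of which a C/EBP match 115 bases before the start overlapped CCAAT boxes on the opposite strand that began at 116 and 108 bases before it. Its TATA box began 52 bases before the start. The Ttr window held 1 match, a CCAAT box on the opposite strand at base 17 after the start. Apoe has 3 windows in RefSeq, and since gene counts do not tell which start was used, none is printed. A CCAAT box on the opposite strand was found in 2 of these 3 windows, which overlap and share it, and none of the other patterns. Of all 33469 windows in the table, 7.45% held the HNF1 pattern, 10.6% the C/EBP pattern, 37.5% a CCAAT box, 14.2% the TATA box and 8.87% the STAT3 pattern. These matches describe letters in a window and not bound sites. Each window rests on the start that RefSeq gives, which the gene counts do not check for any of the genes. A pattern absent from a window may therefore lie outside it.

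Together the 4 genes took 1037659 reads in the healthy, 307143 in the saline and 196952 in the etanercept library. That was 17.3% of gene reads in the healthy library (95% Clopper-Pearson interval 17.28 to 17.34), 11.6% in the saline library (11.57 to 11.65) and 5.41% in the etanercept library (5.39 to 5.43). The order from healthy to saline to etanercept was thus downward, and no neighbouring pair overlapped within counting error. By read count, which also depends on transcript length, Alb was the gene with the most reads in the healthy and saline libraries and came 4th in the etanercept library. In the same order of libraries, Tf came 2nd, 2nd and 5th, Apoe came 5th, 12th and 57th, and Ttr came 7th, 22nd and 124th. In these bulk samples, fewer hepatocytes and less of each RNA per hepatocyte cannot be told apart.

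**Figure D1:**
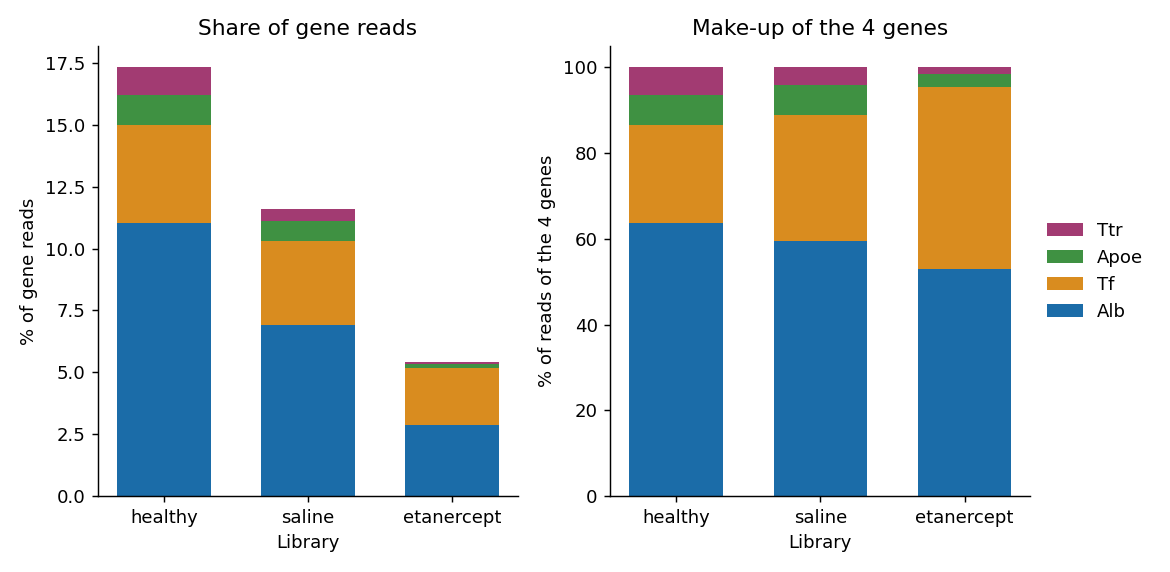
Left, share of gene reads (%) taken by Alb, Tf, Apoe and Ttr in the healthy, saline and etanercept libraries. Right, share of each gene (%) among the reads of the 4 genes. The summed share stood at 17.3%, 11.6% and 5.41%, while the part of Tf among the 4 was 22.9% in the healthy and 42.5% in the etanercept library.

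Alb, the carrier protein, was counted 660883 times in the healthy, 183109 times in the saline and 104342 times in the etanercept library. Scaled by the trimmed mean of M-values (TMM) to counts per 1000000 reads (CPM), its level was 123040 CPM in healthy liver, 56589 CPM after saline and 31425 CPM after etanercept. The healthy library was the highest and the etanercept library the lowest, with no overlap of the counting intervals. Its share of gene reads was 11.0% in the healthy (95% interval 11.0 to 11.1), 6.92% in the saline (6.89 to 6.95) and 2.87% in the etanercept library (2.85 to 2.88).

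Tf, the iron carrier, was counted 237198, 89832 and 83750 times in the healthy, saline and etanercept libraries. Its scaled level was 44160 CPM in healthy liver, 27762 CPM after saline and 25223 CPM after etanercept. The saline and etanercept levels lay close together, although their counting intervals (27581 to 27945 and 25052 to 25394 CPM) did not overlap. Whether that gap exceeds the spread between animals is unknown, because the animals were pooled. As a share of gene reads Tf took 3.96%, 3.40% and 2.30%.

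Apoe, the lipoprotein ligand, was counted 71639, 21254 and 5974 times in the healthy, saline and etanercept libraries. Its scaled level was 13337 CPM in healthy liver, 6569 CPM after saline and 1799 CPM after etanercept (1754 to 1845). The libraries stood in the same order as for Alb, and the fold between saline and etanercept was larger than for Alb. Its share of gene reads was 1.20%, 0.804% and 0.164%.

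Ttr, the thyroid hormone and retinol carrier, was counted 67939, 12948 and 2886 times in the healthy, saline and etanercept libraries. Its scaled level was 12649 CPM in healthy liver, 4002 CPM after saline and 869 CPM after etanercept (838 to 901). Of the 4 genes it had the largest fold between its highest and lowest library, from 1.13% of gene reads in the healthy library to 0.489% in the saline and 0.0793% in the etanercept library. Even the lowest of these levels rests on 2886 reads, so depth does not limit the measurement of any of the 4 genes.

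**Figure D2:**
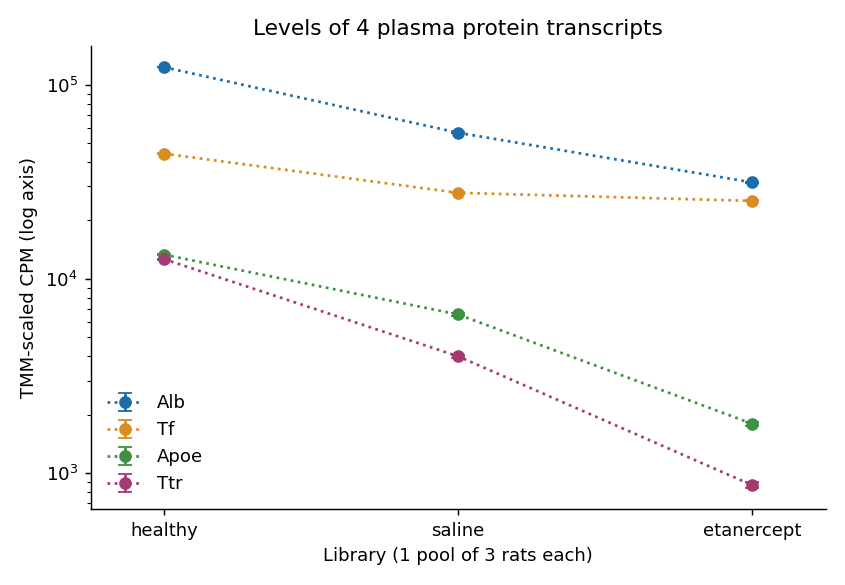
TMM-scaled level in CPM (log axis) of Alb, Tf, Apoe and Ttr in the healthy, saline and etanercept libraries, 1 pooled library each. Bars are exact 95% Poisson intervals and are mostly smaller than the points; dotted lines only join the points of a gene. Ttr spans 12649 to 869 CPM and Tf 44160 to 25223 CPM; heights of different genes also depend on transcript length.

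The saline library was set against the healthy library to describe the liver after hepatectomy. A gene was called when its scaled level differed at least 2-fold and reached 5 CPM in the higher library. Ttr was 3.16-fold lower in the saline library (95% counting interval 3.10 to 3.22), Alb was 2.17-fold lower (2.16 to 2.19) and Apoe was 2.03-fold lower (2.00 to 2.06). Tf was 1.59-fold lower (1.58 to 1.60) and was not called. Thus 3 of the 4 genes were called lower and 0 higher, where 9.66% of the 9755 genes tested were called lower and 9.32% higher. The median log2 fold was -1.07 for the 4 genes and -0.07 for all genes tested. A lower fold than that of Ttr was found for 2.70% of genes tested, and for 7.67%, 9.27% and 18.7% in the case of Alb, Apoe and Tf. No sham-operated group was analysed and the healthy animals were untreated, so regrowth, the operation itself and the saline given cannot be told apart.

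How other abundant transcripts compared depended on how they were picked. Among the 50 other genes with the most reads in the healthy library, 16 lay below the healthy level by at least 2-fold and 0 exceeded it by as much. Their median log2 fold was -0.65, ranging from -2.89 to 0.60. Of these 50 genes, 8 had a lower fold than Ttr, 16 than Alb, 16 than Apoe and 24 than Tf. Scaled by total gene reads, 10 of the 50 were lower, 1 was higher and the median was -0.20. A different class, the 13 other genes whose mean over the 3 libraries was at least 5840 CPM, the mean of Ttr, had 0 genes lower and 0 higher by 2-fold and a median of -0.36. Each of the 4 genes had a lower fold than all 13. The first class was picked by the healthy library and the second by the mean over all 3 libraries, so genes high in healthy liver enter the one and genes high after etanercept enter the other, and both serve as a description only.

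The call of 2 of the 3 genes rested on the scaling. Using total gene reads moved every saline over healthy log2 fold by 0.45, which raised the median of all genes tested to 0.41. Ttr was then 2.32-fold lower and still called, whereas Alb was 1.59-fold, Apoe 1.49-fold and Tf 1.17-fold lower and none of these was called. In that scaling 3.66% of genes tested were called lower. Apoe lay just beyond the threshold with TMM and was 1.97-fold lower with the size factors of DESeq2, and 1.99-fold lower when TMM left out the 4 genes. In each of the 5 scalings all 4 genes were lower in the saline library.

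**Figure D3:**
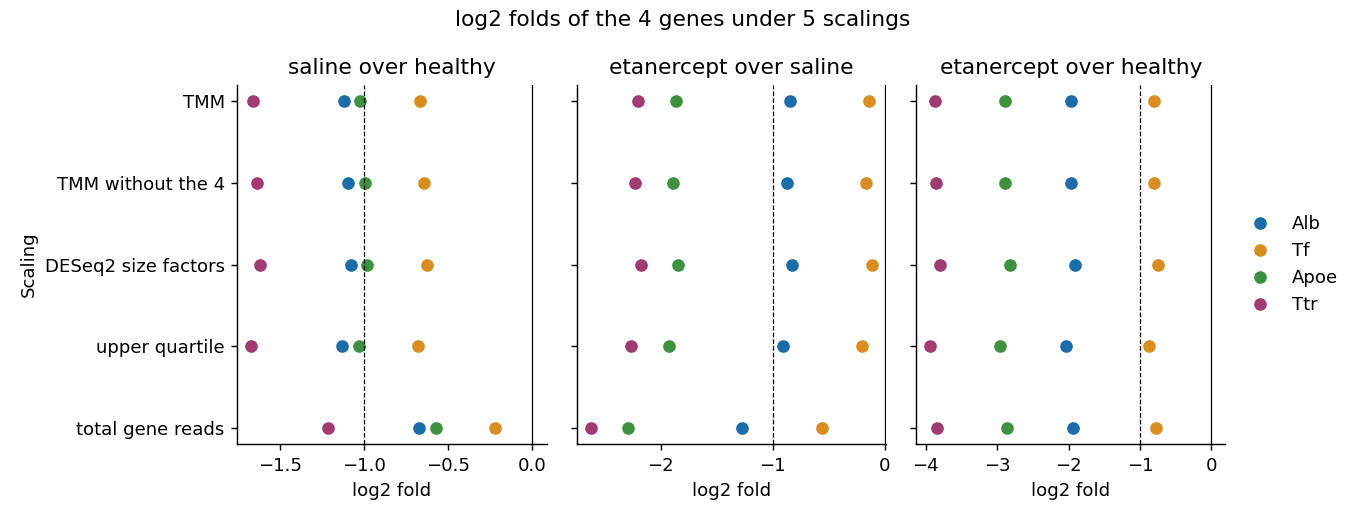
log2 folds of Alb, Tf, Apoe and Ttr in saline over healthy, etanercept over saline and etanercept over healthy (panels) under 5 scalings of the libraries (rows). Solid lines mark no change and dashed lines a 2-fold decrease; all points lie below no change, and scaling by total gene reads moves the points of the first panel by 0.45 and those of the second by -0.42.

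The etanercept library was set against the saline library to describe how the libraries taken after hepatectomy, with and without etanercept, differed. Ttr was 4.60-fold lower in the etanercept library (95% counting interval 4.42 to 4.80) and Apoe was 3.65-fold lower (3.55 to 3.76). Alb was 1.80-fold lower (1.79 to 1.81) and Tf was 1.10-fold lower (1.09 to 1.11), and neither was called. With 2 of the 4 genes called lower and 0 higher, the background was 19.2% of 9991 genes tested called lower and 18.3% called higher. The median log2 fold was -1.36 for the 4 genes and 0.00 for all genes tested. A lower fold was found for 5.45% of genes tested in the case of Ttr, 7.49% for Apoe, 22.7% for Alb and 44.8% for Tf, so Tf lay near the middle of all genes. Reads in no gene, 77.4% of uniquely aligned reads against 21.7%, differ between these libraries as well.

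Other abundant transcripts went in both directions between these libraries. Of the same 50 genes with the most reads in the healthy library, 16 were lower and 6 higher by at least 2-fold after etanercept than after saline. Their log2 folds ranged from -1.89 to 4.44, with a median of -0.49. None of the 50 had a lower fold than Ttr (0 of 50), and 2 had a lower fold than Apoe. A lower fold than that of Alb was found for 20 of the 50, and than that of Tf for 31. In the class of 13 genes picked by the mean over the libraries, 1 was lower and 5 were higher, with a median log2 fold of 0.83. Of these 13, 0 had a lower fold than Ttr or Apoe, 1 had a lower fold than Alb and 4 than Tf. Total read scaling moved all etanercept over saline log2 folds by -0.42, and Alb was then 2.41-fold lower. It was thus called lower, as were 31.6% of genes tested. Tf was 1.48-fold lower in that scaling.

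Against the healthy library, the etanercept library showed the largest folds. Ttr was 14.6-fold lower (95% counting interval 14.0 to 15.1), Apoe 7.41-fold lower (7.22 to 7.61), Alb 3.92-fold lower (3.89 to 3.94) and Tf 1.75-fold lower (1.74 to 1.76). Called lower were 3 of the 4 genes, all but Tf, and 0 were called higher, beside 24.0% lower and 21.9% higher among 10069 genes tested. The median log2 fold was -2.43 for the 4 genes and -0.04 for all genes tested. Of the 50 other abundant genes 28 were lower and 6 higher by at least 2-fold, with a median log2 fold of -1.36. Among these 50, 1 had a lower fold than Ttr, 3 than Apoe, 15 than Alb and 30 than Tf. Of the 13 genes picked by the mean over the libraries 0 were lower and 5 higher, with a median log2 fold of 0.53. In that class 2 genes had a lower fold than Tf, and 0 a lower fold than Alb, Apoe or Ttr. The choice among the 5 scalings mattered little here, as the others moved these log2 folds by -0.07 to 0.07 and left the same 3 genes called. All 5 use gene reads only, and the total chosen did matter. Over uniquely aligned reads the 4 genes took 13.7% in the healthy and 1.13% in the etanercept library, against 17.3% and 5.41% of gene reads. For Tf these shares were 3.14% and 0.480%, against 3.96% and 2.30% of gene reads. The saline and etanercept comparisons share libraries, so their values are given side by side and not as separate evidence.

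**Figure D4:**
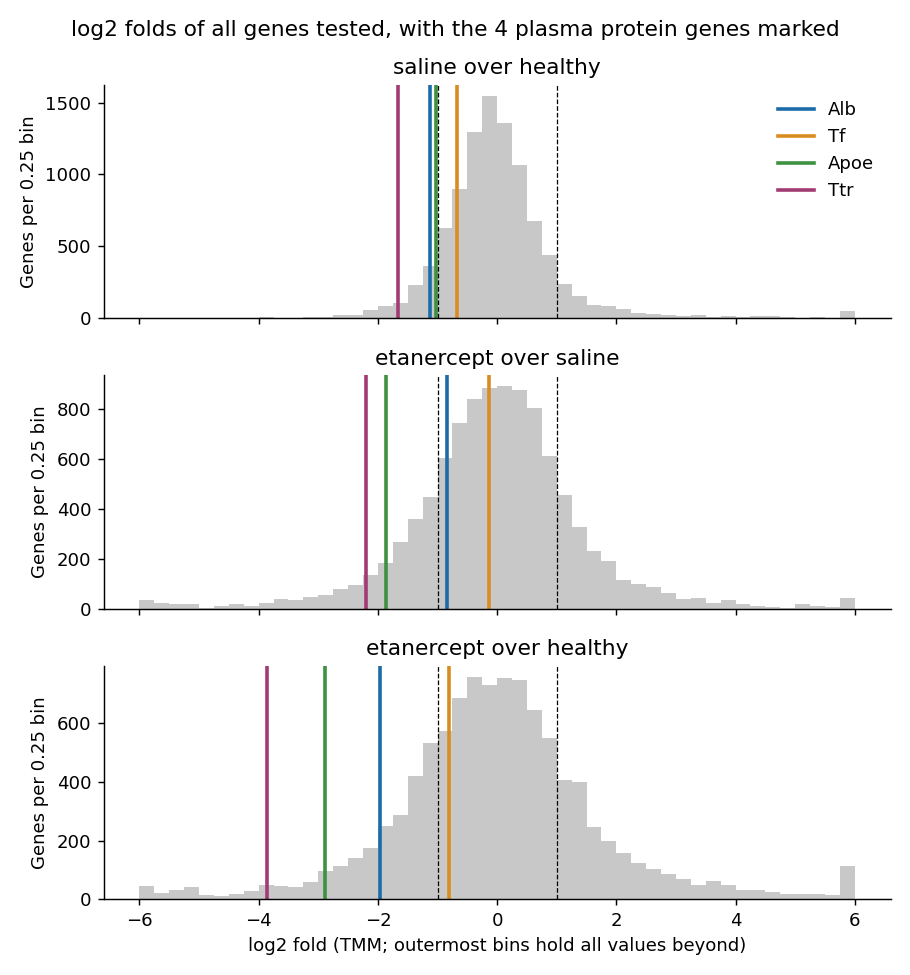
Number of genes tested by log2 fold (bins of 0.25, TMM) in saline over healthy, etanercept over saline and etanercept over healthy. Coloured lines mark Alb, Tf, Apoe and Ttr, and dashed lines mark 2-fold differences. Ttr lies lowest of the 4 in each panel, and Tf lies nearest to 0, at -0.67, -0.14 and -0.81.

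Ratios between the 4 genes within a library do not depend on depth or scaling, and they showed that the genes did not differ between libraries by a common factor. Among the reads of the 4 genes, Alb made up 63.7% in the healthy, 59.6% in the saline and 53.0% in the etanercept library. Tf made up 22.9%, 29.2% and 42.5%, Apoe 6.90%, 6.92% and 3.03%, and Ttr 6.55%, 4.22% and 1.47%. Tf thus had its largest part in the etanercept library, Alb and Ttr had theirs in the healthy library, and Apoe had nearly the same part in the healthy and saline libraries. The widest counting interval of these shares extended 0.22 percentage points from its share.

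The ratio of Alb to Tf reads was 2.79 in the healthy, 2.04 in the saline and 1.25 in the etanercept library. Relative to healthy it was 1.37-fold lower in saline (95% counting interval 1.35 to 1.38) and 1.64-fold lower in etanercept than in saline (1.62 to 1.66). Tf to Ttr was the pair that moved most, with ratios of 3.49, 6.94 and 29.0 in the healthy, saline and etanercept libraries. That ratio was 8.31-fold higher in the etanercept than in the healthy library, a log2 difference of 3.06, and 4.18-fold higher than in the saline library (4.01 to 4.36). By contrast, Alb and Apoe kept nearly the same ratio in the healthy and saline libraries, 9.23 and 8.62, a change of 1.07-fold (1.05 to 1.09). After etanercept the Alb to Apoe ratio was 17.5, which is 2.03-fold above saline (1.97 to 2.09). Apoe and Ttr, the genes with the largest folds between healthy and etanercept, did not keep a fixed ratio either, as Ttr to Apoe was 0.948 in the healthy, 0.609 in the saline and 0.483 in the etanercept library.

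The share of gene reads also depends on what else was abundant. The 10 other genes with the highest mean share took 10.3% of gene reads in the healthy, 12.6% in the saline and 23.7% in the etanercept library. With their reads removed from the total, the 4 genes took 19.3%, 13.3% and 7.09% of the remaining gene reads. Over all uniquely aligned reads, including those in no gene, the 4 genes took 13.7%, 8.99% and 1.13%. The order of the libraries was the same with each of these totals, while the difference between the saline and etanercept libraries was largest, in points and as a ratio, when reads in no gene were included.

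The pattern of the 4 genes over the 3 libraries was compared with that of the 5361 other genes that averaged at least 20 CPM. Likeness was the distance between the log2 folds of saline over healthy and etanercept over healthy as coordinates of a point. Within a distance of 0.5 there were 621 genes (11.6%) for Tf, 177 (3.30%) for Alb, 48 (0.895%) for Apoe and 14 (0.261%) for Ttr. The gene nearest to Alb was ENSRNOG00000023828, at a distance of 0.013, with 65.5, 30.3 and 16.6 CPM in the healthy, saline and etanercept libraries. It rests on 352, 98 and 55 counts, so its nearness is within counting error. ENSRNOG00000005437 was nearest to Ttr, at a distance of 0.113, with 517, 172 and 33.4 CPM (2777, 558 and 111 counts). The nearness of this gene is within counting error as well. Between the 4 genes, the distance was 0.926 for Alb and Apoe, 1.16 for Ttr and Apoe, and 3.21 for Ttr and Tf.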

How the data were processed

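Per the series' design text, each library holds liver RNA from 3 rats, combined before Ion Torrent sequencing. Ribosomal RNA was depleted with a RiboMinus kit before library preparation, per the labels' protocols. The submitters' processing notes name TopHat2 2.0.13 and HTSeq 0.6.1; the build, annotation and strand setting are not given in the sources. The authors deposited raw counts of reads for each Ensembl gene identifier, and 5 summary rows that name no gene stayed out of library sizes.

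Counts were scaled by TMM (edgeR 4.0.16, R 4.3.3), with factors of 0.896, 1.22 and 0.912 for the healthy, saline and etanercept libraries. Folds are ratios of scaled counts after adding 0.5 to each count. At least 5 CPM in the higher library was required, which is 26.9, 16.2 and 16.6 counts. Intervals (scipy 1.17.1) are Clopper-Pearson for shares and folds and Poisson for levels. Ratios between genes have a normal interval on the log scale in place of the exact conditional one, which could not be computed at these counts. Reads without molecular identifiers are not independent molecules.

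The member genes and lists were chosen with earlier results of these data known. Gene names of the 4 members come from the definition that chose them. The reference table gave no Ensembl identifier, so this pairing was not checked, and lists of other plasma proteins, acute-phase proteins, receptors, transcription factors and cell type markers were not scored. Genes that are no members are therefore given by identifier, as the nearest in pattern to Alb and to the member least like it (Ttr).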

Additional observations from a re-analysis of the deposited data

Results flagged for a closer look

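Reads outside the gene counts were more frequent in the saline and etanercept libraries than in the healthy library. Apart from the shares over all uniquely aligned reads, the comparisons of the 4 genes do not use these reads. The share of uniquely aligned reads that lay in no gene was 21.7% after saline and 77.4% after etanercept, where healthy liver had 19.9%. For reads overlapping more than 1 gene the shares were 0.871% and 1.69%, where healthy liver had 0.729%. Entries of reads without a unique alignment are outside these shares and the gene counts. They numbered 23930072 in the healthy, 14151091 in the saline and 36628956 in the etanercept library. Their part in the levels of Alb, Tf, Apoe and Ttr was not tested.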

How the results depend on the processing

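Reads of the 4 genes were summed, which gives Alb and Tf, with the most reads, the most weight. The log2 fold of this sum stayed negative under all alternatives run. For saline over healthy it was -1.03 with TMM, -0.58 with total gene reads, -0.98 with DESeq2's size factors (DESeq2 1.42.0), -1.03 with the upper quartile and -0.997 with TMM computed without the 4 genes. For etanercept over saline the values were -0.68, -1.10, -0.65, -0.74 and -0.70 in the same order. For etanercept over healthy they were -1.70, -1.68, -1.64 and -1.78, and TMM without the 4 genes stayed within the counting interval. A pseudocount of 1 changed none of these beyond counting error. As shares of reads, 17.3%, 11.6% and 5.41% in the healthy, saline and etanercept libraries became 13.7%, 8.99% and 1.13% over uniquely aligned reads and 19.3%, 13.3% and 7.09% without the 10 most abundant other genes. The number of genes called moved with the minimum level, which sets how many genes are tested. With no minimum it was 5127, 8078 and 8346 in saline over healthy, etanercept over saline and etanercept over healthy, and with at least 20 CPM it was 950, 2085 and 2711, against 1851, 3742 and 4627. Total read scaling turned the upward part of the calls from 49.1% to 84.6% in saline over healthy and from 48.8% to 25.4% in etanercept over saline. The medians of the 4 genes under other scalings and the classes of 50 and of 13 other abundant genes were added after seeing the data. No paired analysis was possible because each group has 1 library. Variation between animals is hidden by pooling and was not measured; the lowest count of the 4 genes was 2886.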
